A study of Danio rerio with 20 samples.

Results

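The experiment compared oligodendrocyte precursor cells (OPCs) sorted from zebrafish during demyelination induced with capsaicin through the ion channel TRPV1 with OPCs sorted from its own controls. Its members were the 5 libraries titled demyelination and the 5 titled demyelination control, 10 of the 20 libraries of the series, chosen by title, and all 31743 genes of the deposited tables. Per the labels, fish were treated for 16 h and each library was made from 1 ng or 4 ng of RNA with a kit that reads the 3' ends of transcripts. Which cells carried TRPV1, the strain and age of the fish, the marker used for sorting, what the controls received and whether fish were pooled are not given in the labels used here. Nothing in them says that replicates came from separate groups of fish, so p-values measure the spread between these libraries, which may be technical.

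OPCs are dividing glial cells of the brain and spinal cord that mature into oligodendrocytes, the cells that wrap axons in myelin. Capsaicin opens TRPV1, a cation channel, and a cell made to carry a capsaicin-sensitive form of it takes up calcium until it dies, so that the loss of chosen cells can be timed. After oligodendrocytes are lost, OPCs are known to divide, migrate and mature to replace them, during which they switch on genes of compact myelin such as those of myelin basic protein and proteolipid protein.

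Genes of myelin were the list with the lowest summed level relative to control. Their summed level was 1504 ± 747 CPM (reads of a gene per 1000000 gene reads of its library) in demyelination (SD, n = 5) and 3287 ± 909 CPM in controls 2 to 5 (SD, n = 4). The fitted difference without control 1 was -0.84 ± 0.37 on the log2 scale (SE; edgeR's quasi-likelihood test, adjusted p = 0.313). Summed pancreas and epidermis genes had higher means in demyelination, OPC genes a lower one, and 0 genes or lists passed that test. DESeq2's Wald test called 24 genes lower in demyelination when the shallowest control was left out, among them the myelin genes cd59, cldnk, mbpa, mbpb and mpz. When control 2 or control 5 was left out as well, 0 remained.

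Depth differed widely between libraries. Libraries held 40791, 38314, 81073, 83149 and 3528970 total gene reads in demyelination 1 to 5, against 1180, 282966, 121069, 109946 and 226726 in controls 1 to 5. Demyelination 5 thus held 93.5% of all demyelination reads, and control 1 held too few reads to show most genes, since only 592 genes had a read there. A count of 0 reads allows a level of up to 73.5, 78.3, 37.0, 36.1 and 0.850 CPM in demyelination 1 to 5 and up to 2542, 10.6, 24.8, 27.3 and 13.2 CPM in controls 1 to 5, taking 3 reads as the limit. These limits cover counting error only. The main fits were therefore run with and without control 1, and some results below are shown for a single fit. Only 13 genes were deep enough to compare controls 1 and 2, and over them no difference beyond sampling noise was detectable (chi-square per degree of freedom 1.18, p = 0.289). Against controls 3, 4 and 5, over 14, 15 and 16 genes, control 1 did differ beyond sampling noise. Chi-square per degree of freedom was 3.71, 3.32 and 3.2 there (chi-square p = 2.87e-06, 1.27e-05 and 1.5e-05). Pairs among controls 2 to 5 differed too, at 2.14 to 4.13. With 1180 reads in control 1 and 13 genes compared, the result for controls 1 and 2 cannot show whether they are the same sample. After thinning to 30000 reads per library, 6655, 6574, 5829, 6520 and 7641 genes had a read in demyelination 1 to 5, against 6702, 7238, 6805 and 6844 in controls 2 to 5. The groups overlapped, with 6644 ± 648 genes in demyelination (SD, n = 5) and 6897 ± 235 in controls 2 to 5 (SD, n = 4, two-sided exact permutation p = 0.476).

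A second set of counts followed depth weakly or not at all. Of 180 genes whose median reached 50 reads, 11 had a slope of log2(reads + 1) on log2 total reads under 0.25, a set chosen from its values over the 8 libraries other than demyelination 3 and control 1. Their slopes ran from -0.0242 to 0.2218, where 1 would be proportional to depth, and single members varied, leng8 from 37 to 285 reads over those 8 libraries. Added up, they had 2584, 1998, 50, 2851 and 2999 reads in demyelination 1 to 5, against 6, 2751, 1851, 2186 and 2669 reads in controls 1 to 5. In those 8 libraries the sum thus lay between 1851 and 2999 although total reads differed 92.1-fold, while demyelination 3 and control 1 stood apart with 50 and 6 reads. One of the 11 is annotated as GPR17 (ENSDARG00000045427, GRCz11 chromosome 24, 9604442 to 9605320), a name that belongs to a receptor of premyelinating cells. It had 138, 158, 0, 146 and 145 reads in demyelination 1 to 5, against 1, 162, 114, 126 and 139 in controls 1 to 5. Those reads give 3383 CPM in demyelination 1 and 41.1 CPM in demyelination 5, so its CPM was lower in the library with the larger total. The other gene of that name, gpr17 (ENSDARG00000062030), had 1 read in demyelination 5, 1 read in control 5 and 0 in the other libraries. Other genes of the 11 were trip13, a gene of meiotic and mitotic checkpoints, gramd1ba, a lipid transfer gene, and atp6v0cb, which encodes part of the vesicular proton pump. Introns held 99.9%, 99.7% and 93.7% of their reads. Among the 11 that share was lowest in GPR17 (0%) and cep85l (9.3%) and at least 76.9% in the others.

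The deposited normalised values also place demyelination 3 and 5 apart. They were scaled to a total of exon reads larger than the reads listed in the tables, and the listed exon reads made up 18.3%, 19.6%, 89.3%, 30.7% and 88.7% of that total in demyelination 1 to 5, against 59.5%, 57.0%, 45.2%, 39.1% and 53.1% in controls 1 to 5. Demyelination thus spanned a wider range than its controls. What the remaining reads were is not given in the sources used here.

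**Figure D1:**
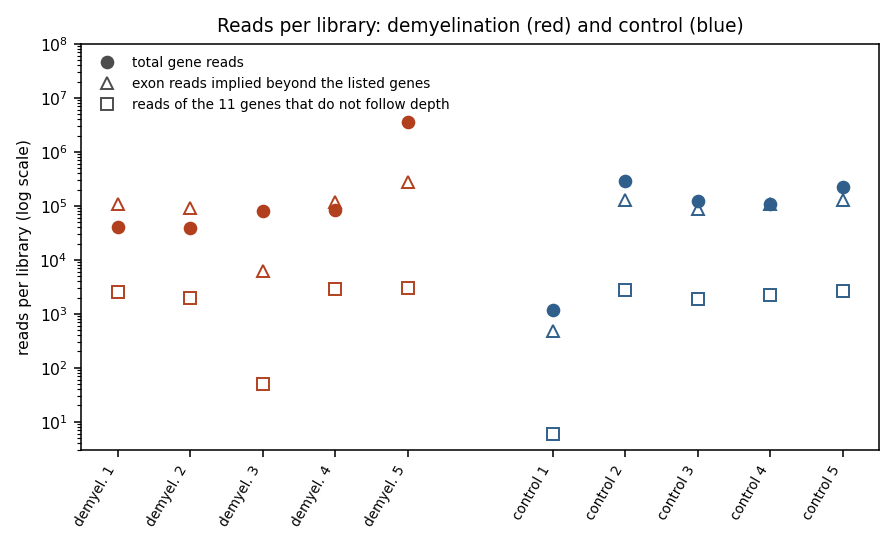
Total gene reads, exon reads implied by the deposited scaling beyond the genes listed, and summed reads of the 11 genes that followed depth weakly or not at all, per library on a log10 axis, with demyelination left and controls right. Demyelination 5 reaches 3528970 total reads and control 1 only 1180, while the summed reads of the 11 genes lie between 1851 and 2999 in all libraries except demyelination 3 and control 1.

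Expression profiles were less alike among the demyelination libraries than among the controls. At 30000 reads per library, over 546 genes, Pearson's r of log2(reads + 1) across genes ranged from 0.214 to 0.817 between demyelination libraries and from 0.7997 to 0.874 between controls 2 to 5. Demyelination 1, 2 and 4 were alike, with r of 0.783 to 0.817 among them. Demyelination 3 correlated with them at 0.214 to 0.281 and with the controls at 0.378 to 0.505. Demyelination 5 correlated with demyelination 1, 2 and 4 at 0.558 to 0.594, and with the controls at 0.671 to 0.709. Genes are not independent replicates, and these values describe the libraries. Single abundant transcripts also stood apart in demyelination 3. The actin-severing factor gene cfl1 stood at 809, 887, 18530, 674 and 1098 CPM in demyelination 1 to 5, against 0, 1336, 1561, 1473 and 565 CPM in controls 1 to 5. The long noncoding RNA gene CR383676.2 stood at 103100 CPM in demyelination 3 and at 23490 to 32090 CPM in the other demyelination libraries, against 30750 to 47440 CPM in controls. Demyelination 3 was the library with high values in both, and no other demyelination library exceeded the controls.

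**Figure D2:**
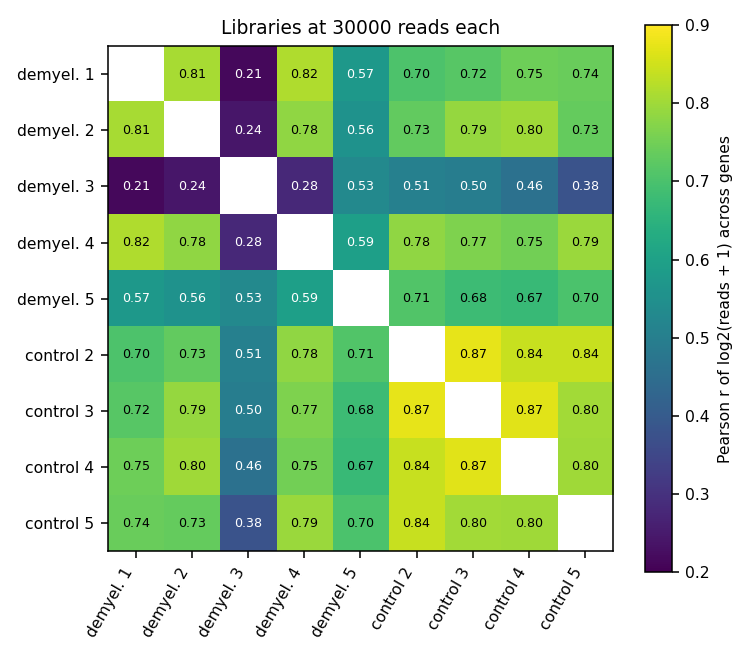
Pearson's r of log2(reads + 1) over 546 genes after thinning each library to 30000 reads, for demyelination 1 to 5 and controls 2 to 5. The 4 controls share r of 0.7997 to 0.874, and demyelination 3 is the darkest row, with 0.214 as the lowest value of the map.

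The label of OPCs was checked against a list of 24 OPC genes and a list of 22 genes of myelin and differentiation. Every OPC gene had a read in demyelination 5, but 13, 13, 14 and 18 of 24 had one in demyelination 1 to 4, against 0, 22, 19, 21 and 20 in controls 1 to 5. The transcription factor gene olig2, which defines the oligodendrocyte lineage, stood at 24.5, 0, 86.3, 48.1 and 10.5 CPM in demyelination 1 to 5, against 0, 81.3, 107, 118 and 132 CPM in controls 1 to 5. Outside control 1, only demyelination 3 reached the range of the controls. The lineage transcription factor gene sox10 stood at 0, 26.1, 37.0, 12 and 10.8 CPM in demyelination 1 to 5, against 0, 88.3, 33.0, 18.2 and 52.9 CPM in controls 1 to 5, and rested on at most 3 reads in demyelination 1 to 4. The growth factor receptor gene pdgfra, a marker of OPCs in mammals, stood at 0, 78.3, 284, 156 and 40.5 CPM in demyelination 1 to 5, against 0, 110, 124, 109 and 79.4 CPM in controls 1 to 5. Here the demyelination libraries lay on both sides of the controls. OPC transcripts were thus present but sparse in both groups. Genes of exocrine pancreas, epidermis and skeletal muscle were measured as well. The summed 27 pancreas genes held 9572 to 31789 CPM in demyelination and 11888 to 15254 CPM in controls, against 613 to 1371 CPM and 0 to 1644 CPM for the 24 OPC genes. Reads of zebrafish trpv1 (ENSDARG00000059883) numbered 0, 1, 2, 0 and 13 in demyelination 1 to 5, against 0, 0, 0, 1 and 2 in controls 1 to 5. A transgene was not looked for, so these reads do not check the treatment.

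No gene passed the test at an adjusted p under 0.05 with edgeR, with or without control 1. With all 10 libraries 823 genes were deep enough to be tested and 0 (0.0%) were called. At an unadjusted p under 0.05 there were 79 (9.6%), 60 of them higher in demyelination (7.29%) and 19 lower (2.31%), and DESeq2's Wald test also called 0 (0.0%), with 32 at an unadjusted p under 0.05 (3.89%). Without control 1, 1157 genes were tested and edgeR again called 0 (0.0%), with 130 at an unadjusted p under 0.05 (11.2%), 83 higher (7.17%) and 47 lower (4.06%). DESeq2 then called 24 of 1086 genes (2.21%), all lower in demyelination, and 0 (0.0%) higher, with 110 of 1157 at an unadjusted p under 0.05 (9.51%). Of those 110, 109 were lower and 1 higher, and the median gene of that test lay at -0.28. All 32 genes at that p in DESeq2 with all libraries were lower too. With no filter on low counts edgeR called 11 of 25772 genes (0.0427%) with all libraries and 5 (0.0194%) without control 1.

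The split of directions depended on how libraries were scaled. With trimmed mean of M values (TMM), the scaling used for all edgeR values unless another is named, the median gene lay at a log2 fold change of 0.21 with all libraries and 0.19 without control 1. With library totals the median was -0.12 and -0.08, and with DESeq2's size factors -0.17 and -0.28. The split of genes at an unadjusted p under 0.05 followed it, with 60 higher and 19 lower by TMM, 10 higher and 68 lower by library totals, and 6 higher and 20 lower by DESeq2's factors. Without control 1 the splits were 83 and 47, 16 and 95, and 1 and 82. Log2 fold changes below are those of the TMM fits, demyelination over control, and were negative for 36.3% of all genes tested with all libraries and 38.6% without control 1. Genes with an unadjusted p under 0.05 that are named below kept their sign under both other scalings.

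Most testable genes of myelin had lower levels in demyelination. Of the 22 listed, 6 could be tested with all libraries and all 6 had a log2 fold change below 0, with a median of -1.19, and 1 reached an unadjusted p under 0.05. Without control 1, 6 of 7 lay below 0, with a median of -1.22, 3 had an unadjusted p under 0.05, and DESeq2 called 5 of the 7: cd59, cldnk, mbpa, mbpb and mpz. edgeR called 0 of them. Over all genes the median was 0.21 with all libraries and 0.19 without control 1. Of all genes tested, 36.3% and 38.6% lay below 0 in those fits, and 2.31% and 4.06% were lower at an unadjusted p under 0.05. DESeq2 called 2.21% of all genes lower without control 1. When control 2 or control 5 was left out as well, 0 of the 5 DESeq2 calls remained. The other members were too shallow to be tested. Fitted with no filter on low counts and without control 1, 14 of the 22 lay below 0 and 8 above, with a median of -0.41, beside 0.48 for all 25772 genes, of which 30.6% lay below 0. The 8 were cnp, enpp6, padi2, fa2h, aspa, anln, cntn1b and tcf7l2. Of these cnp, an enzyme gene of myelin, stood at 49.0, 52.2, 136, 72.2 and 32.3 CPM in demyelination 1 to 5, against 0, 35.3, 33.0, 36.4 and 48.5 CPM in controls 1 to 5. Demyelination 1 to 4 lay above all controls, on 2 to 11 reads each, and demyelination 5 below all but control 1. Since a sorted pool was measured, fewer cells of a type and less RNA per cell cannot be told apart.

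The gene cd59 (chromosome 7, 38695719 to 38698664) encodes a membrane-anchored inhibitor of complement that is abundant in myelinating glia of fish. It stood at 196, 235, 74.0, 421 and 70.28 CPM in demyelination 1 to 5, against 848, 714, 743, 437 and 600 CPM in controls 1 to 5. All demyelination libraries lay below all controls, with demyelination 4 close to control 4, and the value of control 1 was a single read. Its log2 fold change was -1.35 ± 0.49 (SE) with all libraries (edgeR adjusted p = 0.459) and -1.40 ± 0.52 without control 1 (edgeR adjusted p = 0.432). DESeq2 gave -2.13 ± 0.51 without control 1 (adjusted p = 0.0109).

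Both zebrafish genes of myelin basic protein, which holds the membrane layers of myelin together, were low in most demyelination libraries. The gene mbpb (chromosome 16, 6803342 to 6849781) stood at 196, 209, 24.7, 325 and 80.5 CPM in demyelination 1 to 5, against 0, 375, 529, 336 and 542 CPM in controls 1 to 5. Outside control 1 the groups did not overlap, and the log2 fold change without it was -1.21 ± 0.54 (edgeR adjusted p = 0.439; DESeq2 -1.87 ± 0.52, adjusted p = 0.0270). Its paralog mbpa stood at 73.5, 78.3, 160 and 65.5 CPM in demyelination 1, 2, 3 and 5 and at 277 CPM in demyelination 4, against 0, 414, 710, 218 and 251 CPM in controls 1 to 5. Here demyelination 4 lay within the controls, and the log2 fold change without control 1 was -1.22 ± 0.57 (edgeR adjusted p = 0.443; DESeq2 adjusted p = 0.0330).

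The tight junction gene cldnk, used as a marker of myelinating glia in zebrafish, stood at 73.5, 365, 61.7, 240 and 48.2 CPM in demyelination 1 to 5, against 0, 449, 727, 209 and 454 CPM in controls 1 to 5. Demyelination 2 and 4 overlapped control 4, and the log2 fold change without control 1 was -1.38 ± 0.61 (edgeR adjusted p = 0.438; DESeq2 adjusted p = 0.0175). The adhesion protein gene mpz, which in fish serves central as well as peripheral myelin, stood at 49.0, 235, 37.0, 313 and 41.9 CPM in demyelination 1 to 5, against 0, 403, 520, 200 and 410 CPM in controls 1 to 5. The same pair of demyelination libraries, 2 and 4, was high, and the log2 fold change without control 1 was -1.29 ± 0.66 (edgeR adjusted p = 0.459; DESeq2 adjusted p = 0.0342). The proteolipid gene plp1b stood at 123, 287, 111, 349 and 33.7 CPM in demyelination 1 to 5, against 0, 360, 512, 164 and 287 CPM in controls 1 to 5. It overlapped more widely and gave -0.63 ± 0.63 without control 1, with an interval from -2.02 to 0.77 (edgeR adjusted p = 0.668; DESeq2 adjusted p = 0.229). The transcription factor gene tcf7l2, active as OPCs start to differentiate, had a lower mean in demyelination as well, at 104 ± 58.8 CPM (SD, n = 5), against 120 ± 52.5 CPM in controls 2 to 5 (SD, n = 4). Its sign differed between fits, with 0.26 ± 0.41 in edgeR, close to the median gene at 0.19, and -0.10 by DESeq2.

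**Figure D3:**
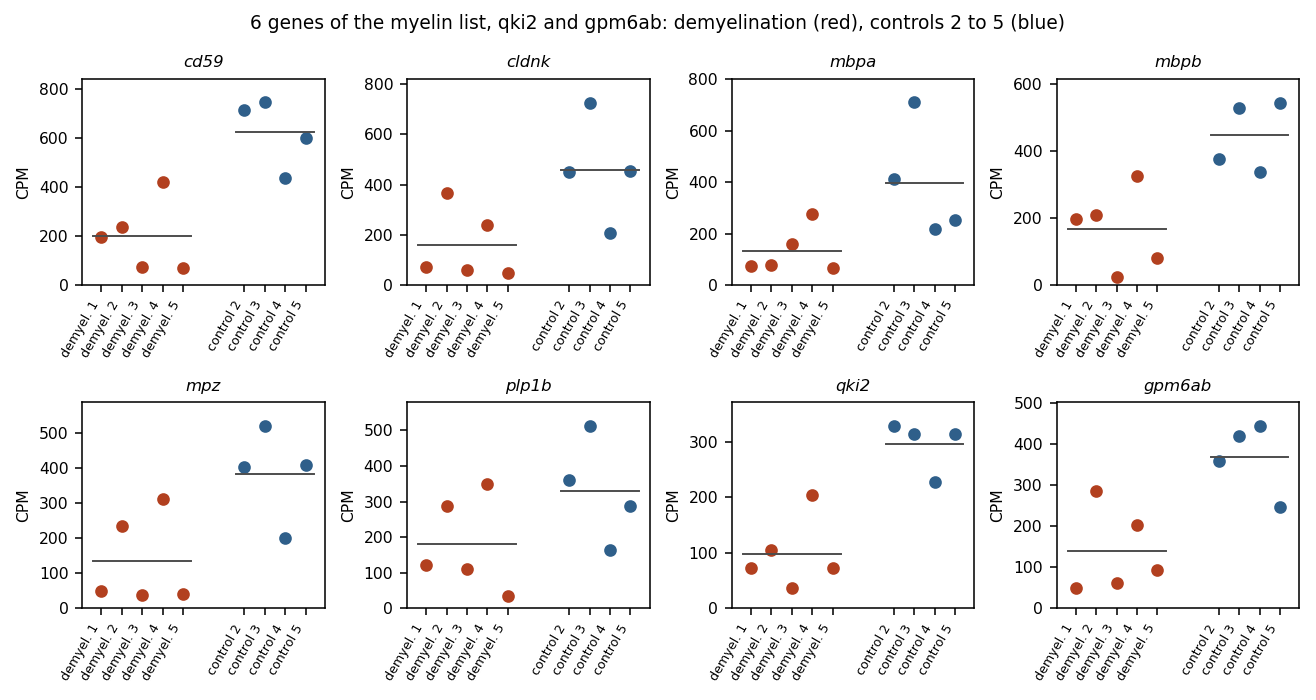
CPM of cd59, cldnk, mbpa, mbpb, mpz, plp1b, qki2 and gpm6ab in demyelination 1 to 5 (left) and controls 2 to 5 (right), with a point per library and a line at the mean. For cd59, mbpb and qki2 every demyelination library lies below every control, and demyelination 2 and 4 are high among the demyelination libraries in cldnk, mpz and plp1b.

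Summed over all 22 myelin genes, levels were 1152, 2010, 888, 2562 and 909 CPM in demyelination 1 to 5, against 1695, 3336, 4435, 2219 and 3158 CPM in controls 1 to 5. Demyelination 4 lay above control 4, and the value of control 1 rested on 2 reads. Its log2 fold change was -0.66 ± 0.44 with all libraries (edgeR adjusted p = 0.412 over 660 pools and families) and -0.84 ± 0.37 without control 1, with an interval from -1.64 to -0.05 (edgeR unadjusted p = 0.0396, adjusted p = 0.313 over 776 pools and families). The sum was negative under each scaling, at -0.84 by TMM, -1.13 by library totals and -1.51 by DESeq2's factors without control 1. Relative to the median pool or family it was -1.05 with all libraries and -1.16 without control 1. With control 1 left out as well, it was -0.67 without demyelination 5 and -0.77 without demyelination 3.

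The pancreas list moved the other way in demyelination 1, 2 and 5. Its 27 genes were all read, 20 to 27 of them in a demyelination library and 24 to 27 in a control other than control 1, and their summed level was 22284, 19366, 9572, 13746 and 31789 CPM in demyelination 1 to 5, against 15254, 11888, 12753, 13880 and 13430 CPM in controls 1 to 5. Demyelination 1, 2 and 5, which were high in pancreas transcripts, were at 1152, 2010 and 909 CPM of myelin genes, while demyelination 3 was low in both. Demyelination 4, at 2562 CPM of myelin genes, lay within the range of controls 2 to 5 in both lists. The part of pancreas transcripts in the lower myelin values was not tested.

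The sum of the 24 OPC genes had a lower mean in demyelination and was not called. It was 613, 887, 1036, 1371 and 699 CPM in demyelination 1 to 5, against 0, 1488, 1644, 1519 and 1328 CPM in controls 1 to 5. Only demyelination 4 reached the controls that held any read of the list. The log2 fold change was -0.19 ± 0.43 with all libraries (edgeR adjusted p = 0.841) and -0.36 ± 0.32 without control 1, with an interval from -1.05 to 0.34 (edgeR adjusted p = 0.547). It was -0.61 and -0.69 by library totals and -0.68 and -0.98 by DESeq2's factors, and relative to the median pool or family it was -0.58 and -0.67 by TMM. Fitted with no filter on low counts and without control 1, 17 of the 24 OPC genes lay below 0 and 7 above. Their median was -0.46, beside -0.41 for the myelin list and 0.48 for all genes, of which 30.65% lay below 0. Of the 3 OPC genes testable with the filter, 1 lay below 0 in each fit. That gene was gpm6ab, of the M6 proteolipid family, at 49.0, 287, 61.7, 204 and 94.1 CPM in demyelination 1 to 5, against 0, 360, 421, 446 and 247 CPM in controls 1 to 5. Demyelination 2 reached the range of controls 2 to 5, and the log2 fold change without control 1 was -1.19 ± 0.47 (edgeR adjusted p = 0.432; DESeq2 adjusted p = 0.0278). The transcription factor gene sox6, which holds OPCs immature in mammals, was at 181 ± 50.1 CPM in demyelination (SD, n = 5) and 214 ± 61.7 CPM in controls 2 to 5 (SD, n = 4), with a log2 fold change of 0.07 ± 0.33. For pdgfra the log2 fold change was 0.49 ± 0.76.

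Sums over gene families reached low members of the lineage that single genes could not. The olig family, olig2 with its relatives, stood at 73.5, 26.1, 86.3, 144 and 17.9 CPM in demyelination 1 to 5, against 0, 117, 124, 146 and 216 CPM in controls 1 to 5. Demyelination 4 alone entered the range of controls 2 to 5, and the log2 fold change was -1.31 ± 0.62 with all libraries (edgeR adjusted p = 0.316). The cspg family of chondroitin sulfate proteoglycans, carried on the surface of OPCs, stood at 73.5, 52.2, 49.3, 84.2 and 68.6 CPM in demyelination 1 to 5, against 0, 120, 149, 146 and 150 CPM in controls 1 to 5. Outside control 1 the groups did not overlap, and the log2 fold change without it was -0.86 ± 0.23 (edgeR adjusted p = 0.182). Of its mean CPM over the libraries without control 1, 52.9% came from cspg5a. Only controls 2 to 5 brought the cspg family past the filter on low counts. The lack of overlap follows from that and is no separate evidence.

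The 24 genes DESeq2 called without control 1 reached beyond the lineage lists. Their DESeq2 log2 fold changes ran from -2.54 to -1.51 with adjusted p-values of 0.0109 to 0.0464. In edgeR all 24 were lower too, at -2.36 to -0.85, and 21 had an unadjusted p under 0.05, but 0 were called (adjusted p 0.161 to 0.459). With all libraries 18 of them were tested, all below 0, 10 at an unadjusted p under 0.05. In 9 of the 24 every demyelination library lay below controls 2 to 5, and of all 1157 genes tested 5.1% did so. The calls depended on single libraries. Without control 2, and also without control 5, 0 remained, while 6, 9, 11, 20, 10 and 18 of the 24 remained without demyelination 1, 2, 3, 4, control 3 and control 4. Without demyelination 5 all 24 remained among 391 calls, and the median gene then lay at -0.85.

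Among those called genes qki2 was the one with the closest tie to myelin outside the list. It encodes an RNA-binding protein of the quaking family, which in mice handles the messenger RNAs of myelin proteins. It stood at 73.5, 104, 37.0, 204 and 72.3 CPM in demyelination 1 to 5, against 0, 329, 314, 227 and 313 CPM in controls 1 to 5. Outside control 1 the groups did not overlap, and the log2 fold change without it was -1.34 ± 0.43 (edgeR adjusted p = 0.393; DESeq2 adjusted p = 0.0270). A second proteolipid relative, gpm6aa, was at 103 ± 65.8 CPM in demyelination (SD, n = 5) and 223 ± 17.2 CPM in controls 2 to 5 (SD, n = 4; DESeq2 adjusted p = 0.0464). The fatty acid binding protein gene fabp7a, of radial glia, was at 301 ± 215 CPM in demyelination (SD, n = 5) and 672 ± 135 CPM in controls 2 to 5 (SD, n = 4; DESeq2 adjusted p = 0.0346).

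The lowest edgeR p in either fit belonged to ttc36, which encodes a protein with tetratricopeptide repeats. It stood at 0, 26.1, 24.7, 36.1 and 28.9 CPM in demyelination 1 to 5, against 0, 127, 190, 109 and 150 CPM in controls 1 to 5. Outside control 1 the groups were far apart, but demyelination 1 to 4 rested on 0 to 3 reads each. Without control 1 its log2 fold change was -2.21 ± 0.38 (edgeR unadjusted p = 0.000139, adjusted p = 0.161; DESeq2 adjusted p = 0.0109). The gene smarcc1a, a subunit of the SWI/SNF chromatin remodelling complex, stood at 49.0, 0, 12.3, 24.1 and 43.1 CPM in demyelination 1 to 5, against 0, 124, 132, 109 and 181 CPM in controls 1 to 5. It too was without overlap outside control 1, with -1.87 ± 0.40 on the log2 scale (edgeR adjusted p = 0.323; DESeq2 adjusted p = 0.0346). Its family gave -1.40 ± 0.29 without control 1 (edgeR adjusted p = 0.182), and smarcc1a held 82.7% of the family's mean CPM over those libraries. Only controls 2 to 5 brought ttc36, smarcc1a and this family past the filter on low counts. Their lack of overlap follows from that and is no separate evidence. Neither gene was tested with all libraries.

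Genes of phagocytes were also among the lower ones. The lysozyme gene lyz, of neutrophils and macrophages, stood at 49.0, 26.1, 24.7, 108 and 73.7 CPM in demyelination 1 to 5, against 0, 177, 471, 118 and 269 CPM in controls 1 to 5. Demyelination 4 came close to control 4, and the log2 fold change without control 1 was -1.79 ± 0.49 (edgeR adjusted p = 0.393; DESeq2 adjusted p = 0.0283). The gene timd4, whose product in mammals lets macrophages bind dying cells, stood at 49.0, 104, 74.0, 84.2 and 25.2 CPM in demyelination 1 to 5, against 848, 216, 330, 182 and 79.4 CPM in controls 1 to 5, of which the first was a single read. Control 5 lay within demyelination, and the log2 fold change was -1.56 ± 0.52 with all libraries (edgeR adjusted p = 0.459). Without control 1 it was -1.49 ± 0.57 (edgeR adjusted p = 0.432, DESeq2 adjusted p = 0.0191). The list of 31 microglia and macrophage genes as a whole differed less, with 673 ± 244 CPM in demyelination (SD, n = 5) and 811 ± 84.4 CPM in controls 2 to 5 (SD, n = 4), and a log2 difference of -0.03 ± 0.24 without control 1 (edgeR adjusted p = 0.956). Relative to the median pool or family that difference was -0.35. By library totals and DESeq2's factors the list stood at -0.27 and -0.49. Its 1 testable gene, apoeb, an apolipoprotein gene of microglia, gave -0.07 ± 0.26.

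Other genes with small p-values on the low side were hpdb, sf3b4, hmgn3, ctsla and and2. The tyrosine breakdown gene hpdb was at 132 ± 96.0 CPM in demyelination (SD, n = 5) and 409 ± 105 CPM in controls 2 to 5 (SD, n = 4; DESeq2 adjusted p = 0.0119). The splicing factor gene sf3b4 was at 74.4 ± 40.3 CPM in demyelination (SD, n = 5) and 217 ± 75.5 CPM in controls 2 to 5 (SD, n = 4), and in both fits no demyelination library reached a control (edgeR adjusted p = 0.459 with all libraries and 0.393 without control 1). The nucleosome-binding gene hmgn3 was at 50.1 ± 15.0 CPM and 143 ± 43.2 CPM in the same groups, and the lysosomal protease gene ctsla at 77 ± 34 CPM and 201 ± 52.2 CPM (edgeR adjusted p = 0.393 for both without control 1). Only controls 2 to 5 brought hmgn3 past the filter on low counts in that fit. Actinodin 2, and2, a structural gene of the fin fold, was at 621 ± 184 CPM and 1363 ± 303 CPM (DESeq2 adjusted p = 0.0224). The Notch target gene her15.1 was also called by DESeq2, but only 11.8% of its reads were unique to it, so its counts may be shared with near-identical copies. The dock family had a log2 fold change of -1.05 ± 0.30 without control 1 (edgeR adjusted p = 0.183). Of its mean CPM over those libraries, 88.3% came from dock1. Of the dock1 reads, 99.8% lay in introns and 36.3% were unique.

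On the high side, ahnak, krtt1c19e and fbxw7 were among the genes with the smallest p-values with all libraries. The scaffold protein gene ahnak stood at 98.1, 183, 111, 168 and 302 CPM in demyelination 1 to 5, against 0, 113, 90.9, 63.7 and 83.8 CPM in controls 1 to 5. Demyelination 1 and 3 lay below control 2, and the log2 fold change was 1.36 ± 0.35 with all libraries (edgeR adjusted p = 0.459) and 1.27 ± 0.34 without control 1 (edgeR adjusted p = 0.393). In DESeq2 without control 1 and demyelination 5 it stood at -0.0208. The keratin gene krtt1c19e of basal epidermal cells stood at 736, 652, 1011, 325 and 641 CPM in demyelination 1 to 5, against 848, 311, 281, 437 and 309 CPM in controls 1 to 5. Demyelination 4 lay among the controls, and the log2 fold change was 1.36 ± 0.39 with all libraries and 1.35 ± 0.39 without control 1 (edgeR adjusted p = 0.459 and 0.393). The ubiquitin ligase gene fbxw7, which limits myelination in zebrafish, stood at 98.1, 157, 210, 132 and 159 CPM in demyelination 1 to 5, against 0, 113, 82.6, 63.7 and 66.2 CPM in controls 1 to 5. Only demyelination 1 lay within the range of controls 2 to 5, and the log2 fold change without control 1 was 1.2 ± 0.36 (edgeR adjusted p = 0.393), but 99.5% of its reads lay in introns. Without control 1, 3 genes (0.259%) had every demyelination library above every control, and 59 (5.1%) had every one below. Among the genes tested with all libraries the counts were 0 (0.0%) above and 16 (1.94%) below. The 3 genes had 0 reads in control 1 and were not tested with all libraries. Their absence there thus does not show an overlap with control 1, where a single read already stands at 848 CPM. The 3 were hs2st1b, which modifies heparan sulfate, the collagen receptor gene ddr1 and the growth factor receptor gene igf1rb, singled out after their values were seen. Introns held 98.15%, 65.77% and 71.79% of the reads of these genes. At most 19 reads of any of them were seen in demyelination 1 to 4. Their log2 fold changes were 1.29 ± 0.33, 1.09 ± 0.34 and 1.22 ± 0.41 (edgeR adjusted p = 0.393, 0.432 and 0.393). Only demyelination libraries brought hs2st1b and ddr1 past the filter on low counts. Their lack of overlap is thus partly set by the filter and is no separate evidence.

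Transcripts of exocrine pancreas and of epidermis, cell types outside the lineage, had higher mean levels in demyelination. All 16 testable pancreas genes had a log2 fold change above 0 in both fits, 10 of them with an unadjusted p under 0.05 with all libraries and 12 without control 1, and 0 were called. Of all genes tested, 7.29% and 7.17% were higher at that p in these TMM fits. With all libraries that was 60 genes by TMM, but 10 by library totals and 6 by DESeq2's factors. The summed pancreas level, given above, overlapped between groups, since demyelination 3 lay below all controls and demyelination 4 among them. Its log2 fold change was 0.99 ± 0.35 with all libraries (edgeR adjusted p = 0.285) and 0.80 ± 0.24 without control 1 (edgeR adjusted p = 0.209). It was above 0 under each scaling, at 0.58 by library totals and 0.43 by DESeq2's factors without control 1, and 0.48 relative to the median pool or family. Without demyelination 3 and control 1 the sum was called, at 0.91 (edgeR adjusted p = 0.0343), and without demyelination 5 and control 1 it was 0.62. The elastase gene ela2 shows the pattern, with 2844, 2480, 1369, 1780 and 4413 CPM in demyelination 1 to 5, against 4237, 1527, 1660, 1865 and 1822 CPM in controls 1 to 5. Demyelination 1, 2 and 5 were high, demyelination 3 and 4 were not, and the log2 fold change without control 1 was 0.81 ± 0.29 (edgeR adjusted p = 0.432). The trypsinogen gene prss59.2 gave 0.80 ± 0.33 and the carboxypeptidase gene cpa4 1.16 ± 0.32 in that fit. Signs turned in DESeq2 without control 1 and demyelination 5, at -0.43 for ela2 and -0.51 for prss59.2, where the median gene lay at -0.85.

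The 18 epidermal genes testable with all libraries, and the 20 without control 1, likewise all lay above 0, 8 of them with an unadjusted p under 0.05 in each fit and 0 called. Over all genes tested that share was 7.29% with all libraries and 7.17% without control 1. Their list of 32 summed to 15003, 12554, 7462, 8178 and 17753 CPM in demyelination 1 to 5, against 6780, 8047, 9788, 9823 and 9174 CPM in controls 1 to 5. As for pancreas, demyelination 1, 2 and 5 were high. Demyelination 3 lay below controls 2 to 5, and demyelination 4 below all of these but control 2. For this sum the log2 fold change was 0.88 ± 0.37 with all libraries (edgeR adjusted p = 0.285) and 0.64 ± 0.22 without control 1 (edgeR adjusted p = 0.264). Without control 1 it was smaller by library totals (0.41) and DESeq2's factors (0.22), and 0.33 relative to the median pool or family. The keratin gene krt4 stood at 2501, 2297, 1209, 1455 and 3793 CPM in demyelination 1 to 5, against 0, 1438, 1693, 1701 and 1628 CPM in controls 1 to 5, with 0.70 ± 0.29 without control 1. The intermediate filament gene cyt1 gave 0.82 ± 0.36, although 65.5% of its reads were unique. In DESeq2 without control 1 and demyelination 5 krt4 stood at -0.53 and cyt1 at -0.44, again above the median gene at -0.85. Skeletal muscle, another tissue outside the lineage, overlapped widely between groups. Its 40 genes summed to 19318, 11145, 7795, 6951 and 12344 CPM in demyelination 1 to 5, against 9322, 10683, 10300, 21702 and 13307 CPM in controls 1 to 5, with a log2 fold change of -0.03 ± 0.31 without control 1 (edgeR adjusted p = 0.965).

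**Figure D4:**
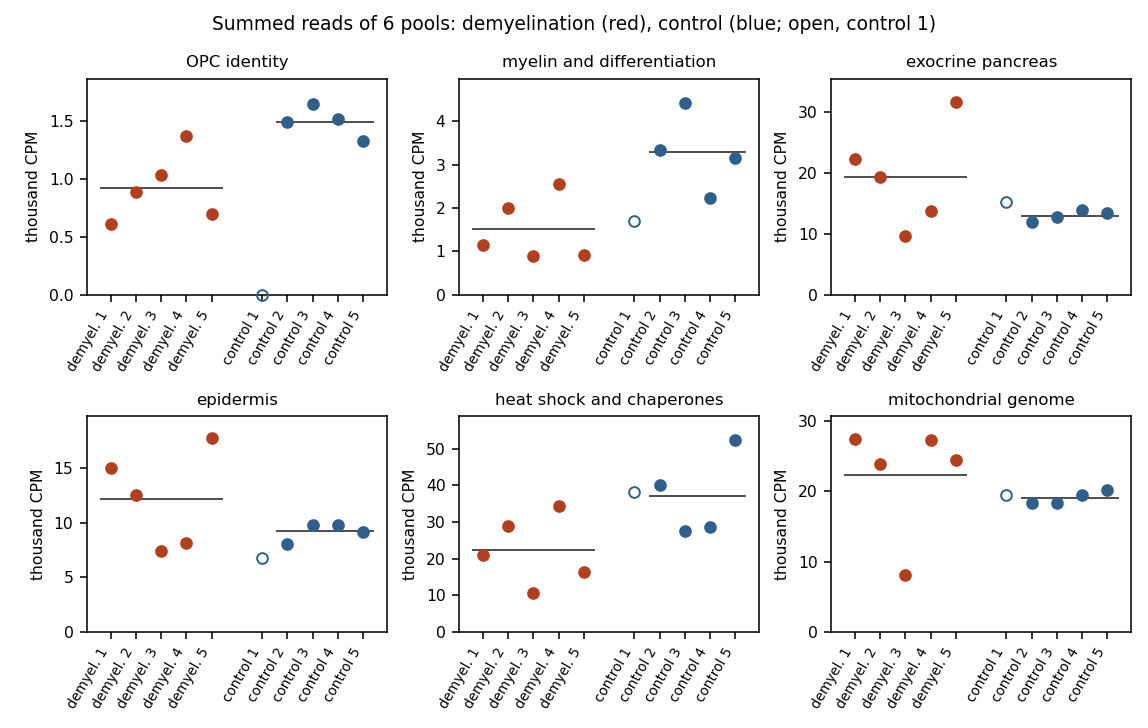
Summed level of 6 gene lists in CPM, in units of 1000, per library, demyelination left and controls right, with a line at the mean over demyelination 1 to 5 and over controls 2 to 5, and control 1 as an open point. Myelin genes reach 2562 CPM at most in demyelination and 2219 CPM at least in controls 2 to 5, and demyelination 5 is the highest library for pancreas and epidermis.

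Over all sums, 0 of 660 pools and families (0.0%) were called by edgeR with all libraries, with 99 at an unadjusted p under 0.05 (15.0%), and DESeq2 called 0 (0.0%) with 4 at an unadjusted p under 0.05 (0.606%). Without control 1, 0 of 776 (0.0%) were called, with 113 at an unadjusted p under 0.05 (14.6%), and DESeq2 called 0 (0.0%) with 27 (3.48%). The median pool or family stood at 0.39 with all libraries and 0.31 without control 1 by TMM, at 0.04 and 0.05 by library totals, and at 0.02 and -0.16 by DESeq2's factors. Sums near these values therefore show no change relative to the rest.

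Stress genes were abundant in both groups. The heat shock and chaperone list of 26 genes summed to 21010, 29023, 10595, 34252 and 16420 CPM in demyelination 1 to 5, against 38136, 40030, 27571, 28632 and 52429 CPM in controls 1 to 5. Demyelination 2 and 4 lay within the range of the controls, and the log2 fold change was -0.30 ± 0.37 with all libraries (edgeR adjusted p = 0.685) and -0.49 ± 0.32 without control 1 (edgeR adjusted p = 0.451). Beside -0.67 for the OPC list, the heat shock sum was -0.80 relative to the median pool or family without control 1. Its leading gene hsp70l, an inducible chaperone, stood at 7185 ± 3561 CPM in demyelination (SD, n = 5) and 12330 ± 3488 CPM in controls 2 to 5 (SD, n = 4), with -0.54 ± 0.41. Since 55.8% of its reads were unique, reads may be shared with hsp70.1, hsp70.2 and hsp70.3. Immediate early genes, switched on by activity and by handling of cells, summed to 1966 ± 557 CPM in demyelination (SD, n = 5) and 2695 ± 598 CPM in controls 2 to 5 (SD, n = 4), with -0.21 ± 0.27 (edgeR adjusted p = 0.692). Within that list jun gave -0.38 ± 0.35 and the injury-response factor gene atf3 -0.81 ± 0.45 (edgeR adjusted p = 0.637 and 0.463).

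Proliferation and inflammation lists, of interest because OPCs divide and microglia react after demyelination, were read at low depth. The 24 proliferation genes summed to 358 ± 119 CPM in demyelination (SD, n = 5) and 450 ± 33.7 CPM in controls 2 to 5 (SD, n = 4), and 7 to 34 reads stood behind demyelination 1 to 4. The log2 fold change was 0.08 ± 0.32 with all libraries (edgeR adjusted p = 0.919). Without control 1 it was -0.005 ± 0.26, with an interval from -0.57 to 0.56, and -0.32 relative to the median pool or family. By library totals and DESeq2's factors it was -0.28 and -0.44 without control 1. The 27 genes of inflammation and interferon summed to 390 ± 111 CPM in demyelination (SD, n = 5) and 492 ± 26.2 CPM in controls 2 to 5 (SD, n = 4). Their log2 fold change without control 1 was 0.02 ± 0.28, with an interval from -0.59 to 0.63 (edgeR adjusted p = 0.971). Relative to the median pool or family it was -0.29, and by library totals and DESeq2's factors -0.28 and -0.45. A change within these intervals was not detectable at this depth.

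Some signs of housekeeping sums differed with scaling. The 82 cytosolic ribosomal protein genes made up 4.51 ± 1.16% of reads in demyelination (SD, n = 5) and 6.18 ± 0.59% in all controls (SD, n = 5; two-sided exact permutation p = 0.0317, adjusted p = 0.222 over 7 library measures). Without control 1 the controls were at 6.15 ± 0.68% (SD, n = 4; exact permutation p = 0.0556, adjusted p = 0.389). In the TMM fit the same sum gave 0.01 ± 0.30 with all libraries and -0.20 ± 0.16 without control 1, and -0.45 by library totals in both. By DESeq2's factors it was -0.44 and -0.74. Relative to the median pool or family it was -0.38 and -0.51 by TMM. Of 77 testable ribosomal genes, 57 lay below 0 with all libraries and 68 without control 1, and 0 were called by edgeR. Of all genes tested, 36.3% and 38.6% lay below 0. The 13 genes of the mitochondrial genome summed to 27457, 23960, 8141, 27300 and 24529 CPM in demyelination 1 to 5, against 19492, 18327, 18287, 19464 and 20245 CPM in controls 1 to 5. Demyelination 3 lay below all controls and the other 4 above all of them. The log2 fold change without control 1 was 0.46 ± 0.26 (edgeR adjusted p = 0.398), 0.64 when demyelination 3 was left out too (edgeR adjusted p = 0.0361), and -0.06 by DESeq2's factors.

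The direction or size of some sums depended on demyelination 3. Astroglia and radial glia genes summed to 1520, 1488, 5699, 1143 and 922 CPM in demyelination 1 to 5, against 0, 1972, 1776, 1965 and 2002 CPM in controls 1 to 5. Demyelination 3 was far above and the other 4 demyelination libraries below controls 2 to 5. The log2 fold change was 0.63 ± 0.62 without control 1 and -0.44 without demyelination 3 and control 1 (edgeR adjusted p = 0.587 and 0.255). The glutamine synthetase gene glula, at 3885 CPM in demyelination 3 and 146 to 294 CPM in the other demyelination libraries, against 304 to 414 CPM in controls 2 to 5, carried most of it. Sterol and fatty acid synthesis genes, which supply myelin lipids, stood at 417, 548, 925, 433 and 523 CPM in demyelination 1 to 5, against 847, 431, 520, 373 and 401 CPM in controls 1 to 5, the first of them from 1 read. Their log2 fold change was 0.76 ± 0.34 without control 1 (edgeR adjusted p = 0.331) and 0.35 when demyelination 3 was left out too.

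**Figure D5:**
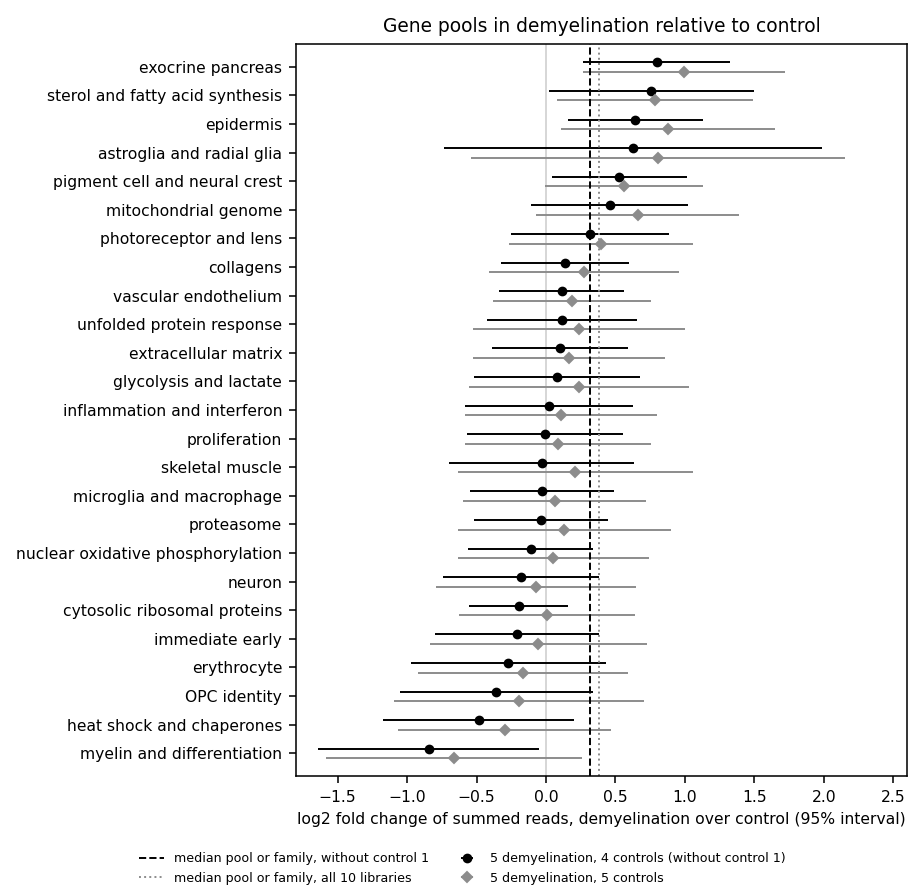
Log2 fold change of 25 gene lists, demyelination over control, with 95% intervals, for all 10 libraries and without control 1, and lines at the median pool or family of each fit. Myelin genes lie lowest, at -0.66 and -0.84, and exocrine pancreas and epidermis lie above the median, at 0.99 and 0.88 with all libraries.

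Among families without a link to the lists, those with the smallest p-values on the high side with all libraries included sdk, vwa, fbp, elf and inpp. Without control 1 they included paqr (1.13 ± 0.26), agbl (0.92 ± 0.23), pard (0.80 ± 0.21) and foxn (0.92 ± 0.24), beside inpp and sdk (edgeR adjusted p = 0.182 for all 6). Only demyelination libraries brought paqr past the filter on low counts in that fit. The sdk family of adhesion molecules stood at 564, 522, 259, 240 and 243 CPM in demyelination 1 to 5, against 0, 170, 165, 218 and 207 CPM in controls 1 to 5. Outside control 1 the groups did not overlap, and the 0 reads of control 1 cannot bear on this, since they allow up to 2542 CPM. The log2 fold change was 1.16 ± 0.31 with all libraries (edgeR adjusted p = 0.234) and 1.12 ± 0.30 without control 1 (edgeR adjusted p = 0.182). The inpp family of inositol phosphatases gave 0.97 ± 0.28 and 0.91 ± 0.24. On the low side the tuba family of alpha tubulins, building blocks of microtubules, gave -0.57 ± 0.28 with all libraries (edgeR adjusted p = 0.320). The cdkn family of cell cycle inhibitors, of which cdkn1bb held 73.0% of mean CPM without control 1, stood at 73.5, 287, 74.0, 132 and 221 CPM in demyelination 1 to 5, against 848, 300, 314, 346 and 326 CPM in controls 1 to 5. All demyelination libraries lay below all controls, with demyelination 2 close to control 2, and the value of control 1 was a single read. The log2 fold change was -0.70 ± 0.30 with all libraries (edgeR adjusted p = 0.287) and -0.76 ± 0.29 without control 1 (edgeR adjusted p = 0.312).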

How the data were processed

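RNA of sorted zebrafish OPCs was sequenced in 5 demyelination and 5 demyelination control libraries, grouped by the titles and treatment labels. The deposited tables hold read counts per gene, per the file headers as total, unique, exon and intron reads, and the total gene read counts of the authors, exon plus intron reads, were used. Both normalised columns, headed TPM and RPKM, were identical, and their values as deposited by the authors are CPM values, exon reads divided by a total that exceeds the listed exon reads and not by gene length. They were used only to compute that total, and CPM in the text are total gene reads scaled to the total of each library's own gene reads. The build is GRCz11, per the submitters' processing notes. The aligner, whether counting used strand, and whether molecular identifiers were collapsed are not given in the sources used here, so copies of 1 molecule may be counted more than once and reads of overlapping genes may be shared.

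Genes were filtered with filterByExpr (minimum count 10, minimum total 15), normalised with TMM and tested with the robust quasi-likelihood test of edgeR 4.0.16 in R 4.3.3 with Benjamini-Hochberg adjustment, called at an adjusted p under 0.05. Counts of 25 gene lists and of symbol families (at least 3 genes sharing the letters of their symbol) were summed and tested together with the library sizes and TMM factors of the gene table. Alternatives were DESeq2 1.42.0 (Wald test, or its size factors), library totals, no filter or a mean of at least 20 reads, exon or unique reads, thinning to 30000 reads, leaving out mitochondrial genes or the 11 genes that followed depth weakly or not at all, lists without their most abundant gene, a threshold of 0.1, a replicate block and leaving out each library. The DESeq2 test without each library was added after seeing the data. Library measures were compared with exact permutation tests, whose smallest possible p is 0.00794. The scripts were tested on simulated counts. The members, lists and tests were chosen with earlier results of these data known. Named genes were the 6 smallest p-values in each direction and fit, up to 4 of the most abundant tested genes of each list, and the genes said to be chosen after their values were seen, which include the DESeq2 calls and the OPC and myelin genes below the 4. No sequences are shown, as none were used here.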

Additional observations from a re-analysis of the deposited data

Results flagged for a closer look

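Of 72 groups of libraries checked, 9 held a library far from the others of its group, and chance flags about 1 in 20 groups. Demyelination 5 stood apart with 3528970 total reads and 25333 genes detected, and in the summed level of vascular endothelium genes, at 307 CPM against 204 to 222 CPM in the other demyelination libraries. Demyelination 3 stood apart at 5699 CPM of astroglia and radial glia genes, 925 CPM of sterol and fatty acid synthesis genes and 8141 CPM of mitochondrial genome genes. Among controls 2 to 5, control 5 stood apart with a ribosomal protein share of 7.16% of reads and a ribosomal protein sum of 71589 CPM, which are the same reads, and control 3 with 1776 CPM of astroglia and radial glia genes.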

How the results depend on the processing

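Counts of calls moved with the filter, the tool and the library left out; the cause was not tested. Without a filter edgeR called 11 genes with all libraries (0.0427%) and 5 without control 1 (0.0194%), among them genes read in 1 library only, such as erc1b. Leaving out 1 library gave 0 to 1 called genes with all libraries (si:ch211-132g1.3 without demyelination 2, ttc36 without demyelination 3) and 0 without control 1. DESeq2 without control 1 called 24, and 0 to 391 when a further library was left out: 6, 9, 12, 23 and 391 without demyelination 1 to 5, and 0, 12, 19 and 0 without controls 2 to 5. Without demyelination 5 that test turned the sign of ahnak (-0.0208), cyt1 (-0.44), ela2 (-0.43), ela2l (-0.33), icn2 (-0.27), krt4 (-0.53), lrmda (-0.0394), prss59.2 (-0.51) and zgc:112160 (-0.23), where the median gene stood at -0.85. Among lists and families, 6 were called without the most abundant gene of each with all libraries (cpa, inpp, myh, pard and top higher, gpm lower), and 0 to 8 when a library was left out in addition to control 1, the 8 without demyelination 3 (cpa, ela, pard, prss, exocrine pancreas and mitochondrial genome higher, dock and smarcc lower). The other 209 values of counts stayed within 1.5 times of the reported count. For genes and for lists and families the reported edgeR count was 0, so there this means 0 calls again. No pairing by replicate number was seen. With all libraries, same-numbered libraries correlated at -0.0746 to 0.0827 in their deviations, and the other pairs at -0.165 to 0.11. Since all pairs lay near 0 at these depths, the check cannot tell whether libraries were paired. With the replicate block 0 genes and 0 lists or families were called in both fits. Depth limits single genes most: 3 reads are worth 73.5 CPM in demyelination 1 and 78.3 CPM in demyelination 2.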

Other observations

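Set against reads of pancreas and epidermis, a ratio chosen after the values were seen, OPC and myelin genes together had 4.73, 9.08, 11.3, 17.9 and 3.25 reads per 100 such reads in demyelination 1 to 5, against 7.69, 24.2, 27.0, 15.8 and 19.8 in controls 1 to 5. Demyelination 4 alone exceeded the lowest of controls 2 to 5.

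Reads of several abundant genes lay almost wholly in introns. The glypican gene gpc6a, with 100% of its reads there, held 59420, 77830, 98520, 58890 and 63900 CPM in demyelination 1 to 5, against 103400, 103000, 88680, 83400 and 85510 CPM in controls 1 to 5. Introns of ERBB4, a receptor gene, held 4823 to 13730 CPM in demyelination and 8292 to 16100 CPM in controls. Reads of ap3b1a jumped between libraries, with 380, 3, 0, 552 and 480 in demyelination 1 to 5, against 0, 239, 3, 2 and 458 in controls 1 to 5, and 7.13% of them were unique to the gene.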
